A study of Mus musculus with 16 samples.

Results

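Late TKO cells of a differentiation course were set against wild-type (WT) cells 3 days younger, across the transcriptome, to ask whether they resemble an earlier WT day or leave the WT course. The comparison took 4 of the 16 libraries of the study, the 2 titled TKO D7 and the 2 titled WT D4. All cells were of ES-E14TG2a (E14), a line of mouse embryonic stem cells. The first group was TKO at day 7 and its counterpart WT at day 4, both in Fgf2 and Activin A with serum replacement, a medium that leads toward epiblast-like cells. TKO at days 0, 2 and 4 and WT at days 0, 2 and 7 gave the background, 2 libraries per group. Day 0 cells of both genotypes grew with LIF, vitamin C and the pair of kinase inhibitors called 2i, and the differentiated cells of both had come from that medium. The labels do not expand TKO and do not say how it was made or whether each genotype is 1 clone. It is taken here, as an assumption, to mean a knockout of the methyltransferases Dnmt1, Dnmt3a and Dnmt3b. Both groups differ in genotype and in day, and the culture was split once more at day 4, so genotype, time and passage cannot be told apart in their difference alone. WT day 7 against WT day 4 gives the time step and its passage without the genotype. The 4 WT days give the range against which TKO day 7 was placed.

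Embryonic stem cells in this day 0 medium hold a naive state like that of the preimplantation epiblast, and Fgf2 with Activin A moves them to the formative and then the primed epiblast. Cells of the primed epiblast can go on to primitive streak, mesoderm and endoderm, or to neural tissue. DNA methylation, placed by Dnmt3a and Dnmt3b and kept by Dnmt1, rises steeply over this transition in WT cells and helps keep germline genes and many repeats silent in somatic cells.

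Total estimated counts were 33168178 and 34007067 in the TKO day 7 libraries and 58197630 and 49300368 in the WT day 4 libraries, and ran from 33168178 to 58197630 over the series. Levels are given in CPM, counts scaled to a common effective library size, a log2 fold change of TKO day 7 over WT day 4 stands in brackets with its SE, and calls were made by edgeR's quasi-likelihood test at 0.05 after Benjamini-Hochberg adjustment. Among genes of at least 5 CPM, 13 differed by over 2-fold between the TKO day 7 libraries. Between the WT day 4 libraries 80 did, 33 higher in replicate 1 and 47 higher in replicate 2. Over the 8 groups this number ran from 6 in TKO day 0 to 168 in TKO day 4. Nothing says that replicates came from separate cultures beyond the word biological in the labels, so p-values measure a spread between libraries only. That spread was estimated jointly over all 16 libraries, not from the 4 compared.

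Dnmt1 and the de novo enzymes Dnmt3a and Dnmt3b were lower in TKO day 7 than in WT day 4. Dnmt1, the maintenance methyltransferase (chromosome 9, 20907209 to 20959888 on GRCm38), stood at 36.2 and 37.2 CPM in TKO day 7 libraries, against 313 and 319.9 CPM in WT day 4 libraries (log2 fold change -3.11 ± 0.10, adjusted p = 1.14e-10). Both TKO libraries lay far below both WT libraries, and TKO day 7 was below each of the 4 WT days. Dnmt3a (chromosome 12, 3806007 to 3914443) stood at 21.96 and 23.8 CPM in TKO day 7, against 297 and 380.1 CPM in WT day 4 (log2 fold change -3.89 ± 0.62, adjusted p = 0.000454). Dnmt3b (chromosome 2, 153649450 to 153687730) stood at 307 and 289.6 CPM in TKO day 7, against 1516 and 1245 CPM in WT day 4 (log2 fold change -2.21 ± 0.20, adjusted p = 9.93e-07). A transcript can remain where an exon is deleted, so these levels check the labels only in part. Dnmt3l, a catalytically inactive partner of these enzymes, was at 2.19 and 2.45 CPM in TKO day 7, against 2.10 and 2.28 CPM in WT day 4, and its difference was not called (0.09 ± 0.43, adjusted p = 0.886). Uhrf1, which recruits Dnmt1 to replicated DNA, was at 424 and 395 CPM in TKO day 7, against 354 and 368 CPM in WT day 4. Its call (0.18 ± 0.07, adjusted p = 0.0464) was lost in 6 alternatives, at adjusted p from 0.062 to 0.334. Of the 10 genes of the DNA methylation machinery 2 rose and 6 fell, against 28.9% higher and 26.3% lower over all genes tested. Dnmt3c, a de novo enzyme of the rodent male germline, was the other that rose (1.58 ± 0.62, adjusted p = 0.0449), a call lost in 7 alternatives at 0.0542 to 0.259. The demethylating dioxygenases Tet1 (-0.76 ± 0.24), Tet2 (-0.95 ± 0.27) and Tet3 (-1.04 ± 0.20) were among those that fell. When low counts were not filtered, with a replicate block, or without TKO day 7 replicate 1 or 2 or WT day 4 replicate 2, 0 of the 10 rose.

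Of 18489 genes tested 10203 were called between TKO day 7 and WT day 4 (55.2%), 5336 higher (28.9%) and 4867 lower (26.3%). By 2-fold or more 3288 genes were higher and 1446 lower, and the median log2 fold change over all genes was 0.00 with a median size of 0.53. Against WT of the same day, TKO day 7 had 8228 genes called (44.5%), 4325 higher (23.4%) and 3903 lower (21.1%). WT day 7 against WT day 4, the time step with its passage, had 6811 genes called (36.8%), 3280 higher (17.7%) and 3531 lower (19.1%). Without WT day 7 replicate 1 or 2 the last had 2155 or 2319 lower genes and 2496 or 2711 higher ones. Its higher genes also outnumbered the lower with RLE size factors (3425 and 3338), DESeq2 (3348 and 3282), a stricter filter (3331 and 3271), the compared libraries alone (3648 and 3421) and without WT day 4 replicate 1 (2909 and 2738). These 3 comparisons share libraries, so their counts stand side by side without a test between them, and their order depends on the fit. With only the compared libraries fitted, TKO day 7 had 10495 genes called against WT day 7 and 10240 against WT day 4. Genes with under 0.1 CPM in WT day 4 made up 15.6% of the higher genes, 0.0616% of the lower genes and 8.15% of all genes tested. Genes so low in WT day 4 can hardly be called lower than it, so this split was largely set in advance. The X chromosome held 5.25% of the higher genes and 3.64% of the lower genes, against 4.05% of those tested.

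Of the 4 WT days, WT day 7 was the one at the smallest overall distance from TKO day 7. The median absolute log2 difference over all genes was 0.847 to WT day 0, 0.684 to WT day 2, 0.519 to WT day 4 and 0.412 to WT day 7. It was 0.425 to TKO day 4, the same genotype 3 days earlier. Over the 4 pairs of libraries it ran from 0.522 to 0.553 for WT day 4 and from 0.416 to 0.429 for WT day 7, ranges that did not overlap. Genes 2-fold or more apart numbered 5315 for WT day 4, 4538 for WT day 7 and 4482 for TKO day 4. Across genes, Pearson's r of the mean log2 levels was 0.920 with WT day 4, 0.925 with WT day 7 and 0.940 with TKO day 4. By these 2 measures TKO day 4 was nearer than WT day 7, while by the median difference it was not.

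Along the main axis of WT time TKO day 7 lay next to WT day 4. A principal component analysis of the 2000 genes most variable over the 8 WT libraries gave a first component with 64.9% of their variance, along which the WT days followed in order, and a second with 23.4%. Set to 0% at WT day 0 and 100% at WT day 7, the TKO day 7 libraries projected to 78.6% and 78.0%, and the WT day 4 libraries stood at 82.3% and 80.6%. TKO day 4 stood at 68.0% and 71.6%. TKO day 7 was thus just below WT day 4 on this axis, and the 2 groups did not overlap. What the first 3 WT components leave out was large in TKO day 7, at 2.28 and 2.34 log2 units (root mean square per gene). It was 1.36 and 1.41 in TKO day 4 and 1.095 and 1.11 in TKO day 0. The WT libraries, which define the components and so are favoured in this measure, had between 0.452 and 0.614.

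**Figure D1:**
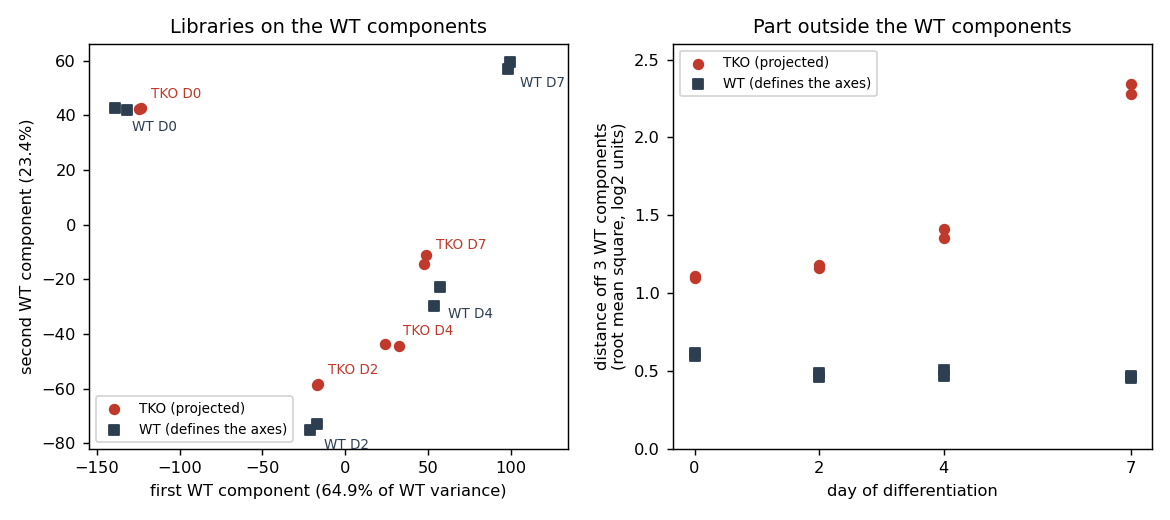
Left, each library on the first and second component of the 2000 genes most variable over WT libraries (component scores, log2 scale), with TKO libraries (red circles) projected and WT libraries (dark squares) defining the axes. Right, the part of each library outside the first 3 WT components (root mean square, log2 units) by day; TKO day 7 lies beside WT day 4 on the left and has the highest values on the right, 2.28 and 2.34.

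Placed gene by gene among the WT days, the called genes fell into 3 large parts. Of the 5336 higher genes 1846 (34.6%) were above each of the 4 WT days, called against every one. Another 1758 (32.9%) were not called outside the WT days and were nearest WT day 0 or 2. A further 1567 (29.4%) were nearest WT day 7 and 165 nearest WT day 4. A gene not called outside can still have a mean beyond every WT mean. Lhx1, for instance, averaged 222 CPM in TKO day 7 and 142 CPM in WT day 7, its highest WT day. Of the 4867 lower genes 1307 (26.9%) were below each WT day, 1750 (36.0%) were nearest WT day 0 or 2, 1657 (34.0%) nearest WT day 7 and 153 nearest WT day 4. The nearest day is a description with no test. As only genes called against WT day 4 were split here, few could lie nearest that day. Of the 8286 genes not called, 3639 (43.9%) were nearest WT day 4 and 2401 (29.0%) nearest WT day 7. Another 1275 were nearest WT day 2 and 971 nearest WT day 0. In all 3153 genes of TKO day 7 stood outside the WT course, 1846 above it (9.98% of genes tested) and 1307 below it (7.07%). The same count was 956 in TKO day 4 (717 above, 3.88%, and 239 below, 1.29%). It was 440 in TKO day 2 (293 above, 1.58%, and 147 below, 0.795%) and 745 in TKO day 0 (242 above, 1.31%, and 503 below, 2.72%). Of the 1846 genes above the WT course in TKO day 7, 762 (41.3%) were nearest WT day 7, and of the 1307 below it 677 (51.8%). The WT course was sampled to day 7 only, and whether WT cells reach such levels later was not tested.

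**Figure D2:**
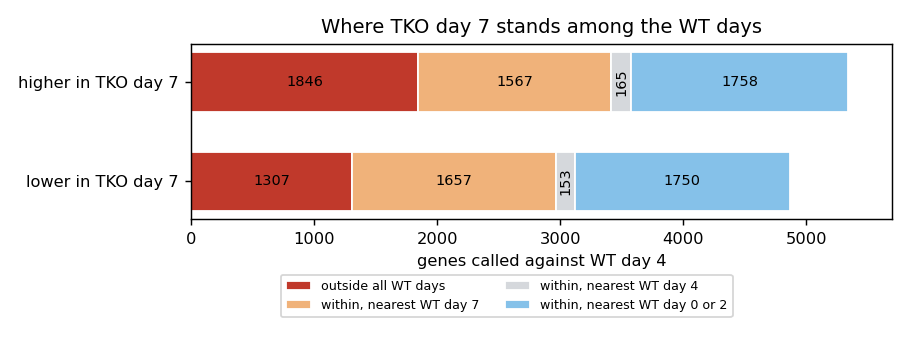
Genes called between TKO day 7 and WT day 4 (x axis, number of genes), higher above and lower below, split by where their TKO day 7 level stands among the WT days. Outside all WT days stand 1846 higher and 1307 lower genes, and the rest have levels nearest WT day 7, nearest WT day 0 or 2 or, for 165 higher and 153 lower genes, nearest WT day 4. Only genes called against WT day 4 are shown, so few could lie nearest that day. In the legend, within means not called outside all WT days.

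Other comparisons that share no library with TKO day 7 against WT day 4 placed its calls further. The 5283 genes higher in WT day 7 than in WT day 2 (28.6% of those tested) were higher in TKO day 7 than in WT day 4 in 40.6% and lower in 23.9%, and they made up 40.2% of the 5336 higher genes and 26.0% of the 4867 lower ones. The 5900 genes lower in WT day 7 than in WT day 2 (31.9%) were higher in 25.6% and lower in 32.4%, and made up 28.3% of the higher and 39.2% of the lower genes. Genes of the earlier step, WT day 2 against WT day 0, divided evenly, with 29.53% higher and 29.99% lower among the 6079 that rose (32.9%) and 30.56% and 30.54% among the 5294 that fell (28.6%). The first of these sets made up 33.6% of the higher and 37.5% of the lower genes, and the second 30.3% and 33.2%. The 1462 genes already higher in TKO than in WT at day 2 (7.91%) were higher in 50.3% and lower in 22.6%, and the 1020 already lower at day 2 (5.52%) were higher in 18.9% and lower in 47.9%. Those higher at day 2 made up 13.8% of the higher and 6.78% of the lower genes of TKO day 7, and those lower at day 2 made up 3.62% and 10.0%.

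**Figure D3:**
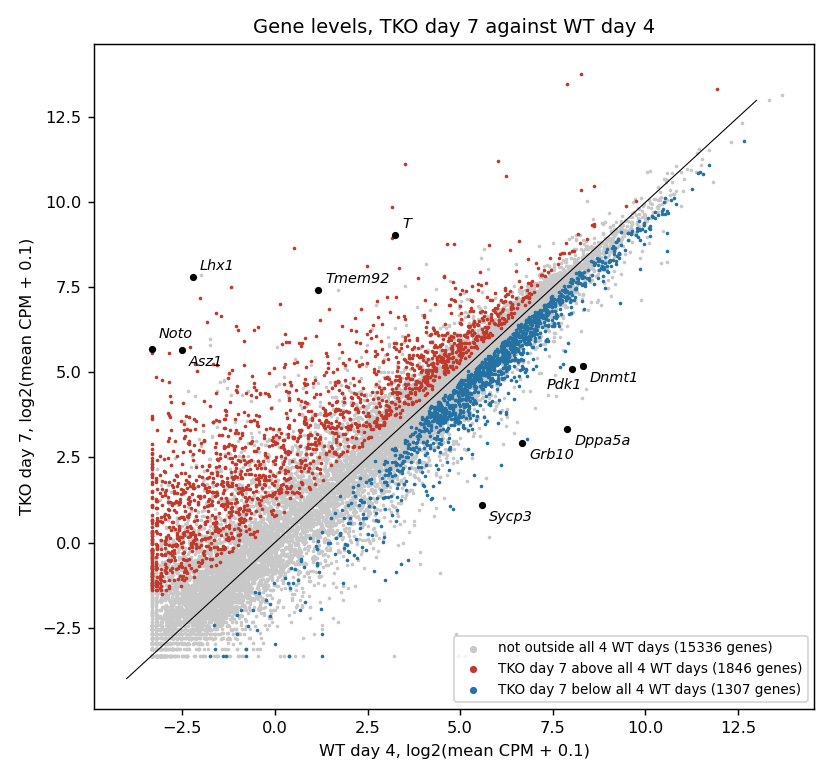
Mean level of each of 18489 genes in TKO day 7 (y axis) and WT day 4 (x axis), both log2(CPM + 0.1), with the diagonal as equality. Red points are the 1846 genes above and blue points the 1307 genes below all 4 WT days, and black points are genes named in the text.

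Pluripotency genes were mostly lower in TKO day 7 than in WT day 4. Of 10 core pluripotency genes 0 rose and 8 fell, with a median of -0.73, against 28.9% and 26.3% called over all genes and a median of 0.00. Pou5f1, the central pluripotency factor, stood at 592 and 595 CPM in TKO day 7, against 866 and 965 CPM in WT day 4 (log2 fold change -0.62 ± 0.13, adjusted p = 0.000894). Sox2, its partner factor, stood at 15.3 and 16.8 CPM in TKO day 7, against 33.8 and 42.1 CPM in WT day 4 (log2 fold change -1.24 ± 0.21, adjusted p = 0.00027). Pou5f1, Sox2 and the translational regulator Trim71 were below each of the 4 WT days. Utf1, a chromatin factor of stem cells (-2.62 ± 0.15), and Dppa4, a partner of Dppa2 (-2.85 ± 0.14), fell. Dppa4 stood at 4.95 and 6.14 CPM in TKO day 7, against 41.5 and 38.8 CPM in WT day 4, and at 3.00 CPM in WT day 7.

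Naive pluripotency genes went both ways and were low in both groups, summing to 362 and 357 CPM in TKO day 7, 571 and 837 CPM in WT day 4 and 6478 and 6107 CPM in WT day 0. Of 20 tested 5 rose and 8 fell, against 28.9% higher and 26.3% lower over all genes. The median of -0.25 was -0.72 and -0.06 without WT day 4 replicate 1 and 2, -0.52 and -0.14 without TKO day 7 replicate 1 and 2, and -0.40 with the compared libraries alone. Dppa5a, an RNA-binding protein of naive cells, stood at 10.3 and 9.81 CPM in TKO day 7, against 149.7 and 323 CPM in WT day 4 (log2 fold change -4.55 ± 0.45, adjusted p = 9.89e-06). At WT day 0 it averaged 1576 CPM and at WT day 7 2.57 CPM. Nanog, a factor of naive and of late epiblast cells, stood at 218 and 219 CPM in TKO day 7, against 286 and 363 CPM in WT day 4 (log2 fold change -0.57 ± 0.11, adjusted p = 0.000448). Fgf4, the growth factor of the inner cell mass, was at 2.30 and 2.40 CPM in TKO day 7, against 15.9 and 20.8 CPM in WT day 4 (-2.96 ± 0.17, adjusted p = 1.32e-08) and was below each WT day. Zfp42 (Rex1) was at 2.88 and 3.09 CPM in TKO day 7, against 6.91 and 8.88 CPM in WT day 4 (-1.40 ± 0.26, adjusted p = 0.00066). Esrrb was at 5.29 and 5.26 CPM in TKO day 7, against 5.59 and 8.45 CPM in WT day 4, a difference not called (-0.40 ± 0.38, adjusted p = 0.4). Klf4 (1.36 ± 0.18) and the adhesion molecule Jam2 (1.66 ± 0.19) rose. Klf4 averaged 7.98 CPM in TKO day 7, 3.09 CPM in WT day 4 and 223 CPM in WT day 0, and Jam2 averaged 4.03, 1.26 and 214 CPM in the same groups. None of the 20 naive genes stood above the WT course. That course includes WT day 0, where the list sum was far higher, so few could stand above it.

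In the list of formative and primed epiblast, 4 of 16 rose and 11 fell (median -0.97), against 28.9% and 26.3% over all genes. Of the 16, 10 were nearest WT day 7 and not called outside the WT course. Among all called genes not outside it, 44.9% of the higher and 46.5% of the lower were nearest that day. Fgf5, the classical marker of epiblast-like cells, stood at 284 and 293 CPM in TKO day 7, against 82.4 and 99.8 CPM in WT day 4 (log2 fold change 1.66 ± 0.21, adjusted p = 4.98e-05), and averaged 225 CPM in WT day 7. Otx2, a factor of the formative and anterior epiblast, stood at 97.4 and 98.7 CPM in TKO day 7, against 159 and 174 CPM in WT day 4 (log2 fold change -0.76 ± 0.11, adjusted p = 3.87e-05). Pou3f1 (Oct6) was at 20.4 and 17.3 CPM in TKO day 7, against 49.7 and 45.6 CPM in WT day 4 (-1.34 ± 0.15, adjusted p = 7.91e-06). The factors Foxd3 (-2.41 ± 0.17) and Grhl2 (-1.92 ± 0.11) fell and the Wnt effector Lef1 (0.81 ± 0.09) rose. Dnmt3a and Dnmt3b are 2 of the 11 lower members and are also the genes assumed lost, and Cdh2 is 1 of the 4 higher ones.

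Primitive streak and mesoderm genes were far higher in TKO day 7 than in WT day 4 and mostly above the WT course. Of 18 tested 15 rose and 0 fell, with a median of 3.05, and 11 of the 15 were above all 4 WT days. Among all genes tested 28.9% were higher, 26.3% lower and 9.98% above all WT days. T (Brachyury), the defining factor of the streak (chromosome 17, 8434423 to 8442496), stood at 516 and 527 CPM in TKO day 7 libraries, against 3.81 and 15.1 CPM in WT day 4 libraries (log2 fold change 5.80 ± 0.68, adjusted p = 5.96e-05). WT day 7 averaged 47.2 CPM and TKO day 4 3.37 CPM. TKO day 7 was thus the highest group mean of the 8 in the series. Mixl1, a homeobox factor of the streak, was at 75.2 and 85.5 CPM in TKO day 7, against 0.328 and 0.920 CPM in WT day 4 (log2 fold change 7.05 ± 0.28, adjusted p = 6.98e-10). Eomes, a T-box factor of streak and endoderm, was at 149 and 152 CPM in TKO day 7, against 5.66 and 13.3 CPM in WT day 4 (log2 fold change 4.00 ± 0.35, adjusted p = 2.83e-06), and averaged 75.9 CPM in WT day 7. Evx1, a posterior streak factor, was at 41.5 and 33.9 CPM in TKO day 7, against 0.0690 and 0.355 CPM in WT day 4 (7.53 ± 0.54, adjusted p = 1.55e-07), and Wnt3, the ligand that starts the streak, at 50.5 and 48.3 CPM in TKO day 7, against 5.36 and 7.46 CPM in WT day 4 (2.95 ± 0.41, adjusted p = 7.97e-05). Msgn1, a factor of paraxial mesoderm, had 475 counts in the 2 TKO day 7 libraries and 0 in the WT day 4 libraries. With the floor set at 3 counts for the pair of libraries it was at least 236-fold higher. Gsc and Lhx1, markers of the anterior streak and node, were not called above all WT days. Lhx1 was at 216 and 228 CPM in TKO day 7, against 0.103 and 0.125 CPM in WT day 4 (log2 fold change 10.90 ± 0.77, adjusted p = 8.29e-07) and averaged 142 CPM in WT day 7, and Gsc averaged 30.97 CPM in TKO day 7 and 26.9 CPM in WT day 7. Summed over the list, the libraries held 1175 and 1217 CPM in TKO day 7, 28.3 and 70.8 CPM in WT day 4 and 397 and 308 CPM in WT day 7. In bulk RNA, more cells of a type and more RNA per cell cannot be told apart.

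Noto, a homeobox gene of the node and notochord, had 0 counts in both WT day 4 libraries. It read 52.7 and 51.3 CPM in TKO day 7, at least 1833-fold higher, and averaged 0.531 CPM in WT day 7. Nog, a secreted antagonist of BMP made by the node and notochord, was at least 460-fold higher, with 0 counts in WT day 4 and 5.55 CPM in WT day 7. Cdx2, a factor of trophoblast and of the posterior embryo, was at least 259-fold higher, at 7.30 and 7.36 CPM. Of the trophoblast list, on which Cdx2 stands, 6 of 13 rose and 1 fell, against 28.9% and 26.3% over all genes. Its median of 0.59 was 1.43 and 1.19 without WT day 4 replicate 1 and 2, 1.73 when low counts were not filtered and 1.79 with DESeq2. Elf5 was at 0.0575 and 0.110 CPM in TKO day 7, against 0.241 and 0.125 CPM in WT day 4 and Tfap2c at 2.73 and 2.65 CPM in TKO day 7, against 2.40 and 3.35 CPM in WT day 4, neither called. The keratin Krt7 rose (2.17 ± 0.19) and Krt18 fell (-0.56 ± 0.13). Samd3 (at least 1681-fold), Defa30 (at least 437-fold) and Agt, the precursor of angiotensin (at least 210-fold), also had 0 counts in WT day 4. Samd3 averaged 47.6 CPM in TKO day 7 and already 21.9 CPM in WT day 7 (log2 fold change against WT day 7 1.12). Defa30 and Agt averaged 0.591 and 0.265 CPM in WT day 7.

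Endoderm genes rose too, but most were not called outside the WT course. Of 16 tested 12 rose and 0 fell (median 3.70), against 28.9% and 26.3% over all genes, and 4 were above all WT days. Against WT day 7 the same 16 had 5 higher and 6 lower, with a median of -0.37 (23.4% and 21.1% over all genes). Foxa1, a pioneer factor of endoderm, stood at 39.1 and 37.7 CPM in TKO day 7, against 0.931 and 1.74 CPM in WT day 4 (log2 fold change 4.87 ± 0.24, adjusted p = 2.86e-09). Sox17, the defining factor of definitive endoderm, stood at 4.40 and 5.04 CPM in TKO day 7, against 0.0862 and 0 CPM in WT day 4 (log2 fold change 6.56 ± 0.53, adjusted p = 3.25e-07), and averaged 34.99 CPM in WT day 7. TKO day 7 was therefore above WT day 4 and below WT day 7 in Sox17 (log2 fold change against WT day 7 -2.89, adjusted p = 6.65e-06). Gata6 was at 11.7 and 11.9 CPM in TKO day 7, against 0.103 and 0.0627 CPM in WT day 4 (7.07 ± 0.57, adjusted p = 4e-07) and 15.3 CPM in WT day 7. The chemokine receptor Cxcr4 averaged 13.1 CPM in TKO day 7, 1.14 CPM in WT day 4 and 44.9 CPM in WT day 7. The summed list held 425 and 470 CPM in TKO day 7, 18.4 and 27.2 CPM in WT day 4 and 442 and 325 CPM in WT day 7.

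Genes of the cadherin switch, by which epithelial cells turn mesenchymal, differed as well. Cdh2 (N-cadherin) stood at 232 and 228 CPM in TKO day 7, against 25.3 and 21.4 CPM in WT day 4 (log2 fold change 3.30 ± 0.12, adjusted p = 2.97e-10), and the intermediate filament Vim at 439 and 416 CPM in TKO day 7, against 63.02 and 46.7 CPM in WT day 4 (log2 fold change 2.96 ± 0.14, adjusted p = 2.13e-09). Both were above each WT day. Cdh1 (E-cadherin) was at 409.5 and 460.3 CPM in TKO day 7, against 1054 and 958 CPM in WT day 4 (log2 fold change -1.21 ± 0.13, adjusted p = 4.95e-06). Epcam (-1.26 ± 0.12) and the tight junction protein Ocln (-1.30 ± 0.10) fell, and Cdh1 and Ocln were below each WT day. Snai1 (3.15 ± 0.35), Zeb1 (3.11 ± 0.32) and Zeb2 (2.16 ± 0.20), repressors of Cdh1, rose. In all 7 of 12 rose and 4 fell, where 28.9% of all genes tested were higher and 26.3% lower. Stromal fibroblast genes, markers of cells other than the line, had 7 higher and 2 lower of 10, against the same shares over all genes. They summed to 76.2 and 73.4 CPM in TKO day 7 and 36.9 and 25.3 CPM in WT day 4. The sums in WT day 7 were 54.6 and 44.97 CPM. Twist1 (2.20 ± 0.13) and Pdgfrb (2.63 ± 0.17), which early mesoderm also expresses, were above each WT day, while Thy1 fell (-1.64 ± 0.28, adjusted p = 0.000269). Fap had 0 counts in TKO day 7 and 8 in WT day 4, a call lost in 4 alternatives (0.0628 to 0.0945). The part of such cells in the results was not tested.

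**Figure D4:**
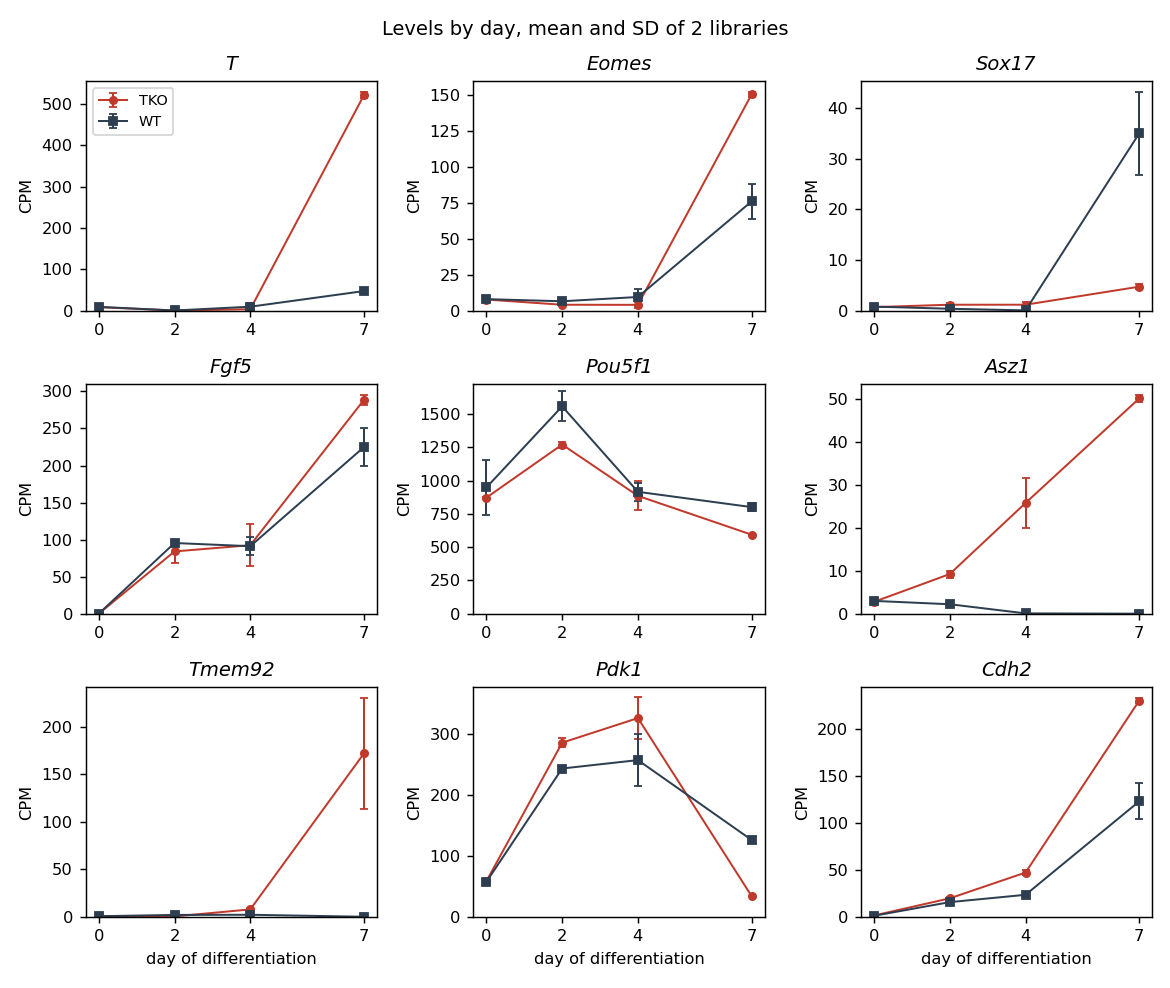
Level of 9 genes (y axis, CPM) by day of differentiation in TKO (red circles) and WT (dark squares), mean with the SD of 2 libraries. T, Eomes, Asz1, Tmem92 and Cdh2 are highest in TKO day 7, Sox17 is highest in WT day 7, and Pdk1 and Pou5f1 are lower in TKO day 7 than in either WT day 4 or WT day 7.

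Neural genes had 11 higher and 4 lower of 20 (median 0.80, or 1.25 with a stricter filter), and 3 were above each WT day. The shares over all genes were 28.9% higher and 26.3% lower. Dcx, a microtubule protein of migrating neurons, stood at 12.5 and 15.2 CPM in TKO day 7, against 1.12 and 1.13 CPM in WT day 4 (log2 fold change 3.62 ± 0.26, adjusted p = 8.62e-08). Sox21 rose (3.89 ± 0.33) to a level within the WT course. Pax6 and Sox1, factors of early neural cells, were among the 4 that fell. Pax6 stood at 1.64 and 1.27 CPM in TKO day 7, against 6.05 and 6.69 CPM in WT day 4 (log2 fold change -2.13 ± 0.27, adjusted p = 1.69e-05), and Sox1 at 11.5 and 10.03 CPM in TKO day 7, against 17.3 and 17.7 CPM in WT day 4 (-0.70 ± 0.16, adjusted p = 0.00173). The RNA-binding protein Msi1 fell too (-0.39 ± 0.08). The summed list was 568 and 561 CPM in TKO day 7, 322 and 219 CPM in WT day 4 and 569 and 626 CPM in WT day 7, most of it from Nes, an intermediate filament gene of progenitors, at 426 and 413 CPM in TKO day 7, against 176 and 106 CPM in WT day 4.

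Germline genes, which methylated promoters keep silent in somatic cells, were mostly higher in TKO day 7. The starts of 5 genes are shown because they carry this contrast, 2 germline genes that rose, 2 that fell and 1 two-cell gene that rose. Each is 300 bases of RefSeq promoter on GRCm38.p6, 5′ to 3′ on the strand of the gene, from 250 bases before the start to 50 bases after it. The capitals mark CACGTG, the E-box bound by the factors of the germline repressor complex PRC1.6 among others. It is its own reverse complement, so 1 search reads both strands.
Asz1, chr6:18109012-18109311, minus strand: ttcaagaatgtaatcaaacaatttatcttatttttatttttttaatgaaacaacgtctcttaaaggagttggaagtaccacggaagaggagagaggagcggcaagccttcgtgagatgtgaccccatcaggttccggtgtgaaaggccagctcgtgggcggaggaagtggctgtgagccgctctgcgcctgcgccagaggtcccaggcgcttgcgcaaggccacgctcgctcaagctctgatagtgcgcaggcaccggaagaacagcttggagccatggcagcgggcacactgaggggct
Fkbp6, chr5:135349995-135350294, minus strand: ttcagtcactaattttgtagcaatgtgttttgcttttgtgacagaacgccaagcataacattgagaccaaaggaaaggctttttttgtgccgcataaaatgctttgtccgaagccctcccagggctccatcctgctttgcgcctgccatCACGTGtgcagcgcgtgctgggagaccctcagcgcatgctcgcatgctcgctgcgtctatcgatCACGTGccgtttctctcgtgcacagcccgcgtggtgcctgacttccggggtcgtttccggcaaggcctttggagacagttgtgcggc
Sycp3, chr10:88459337-88459636, plus strand: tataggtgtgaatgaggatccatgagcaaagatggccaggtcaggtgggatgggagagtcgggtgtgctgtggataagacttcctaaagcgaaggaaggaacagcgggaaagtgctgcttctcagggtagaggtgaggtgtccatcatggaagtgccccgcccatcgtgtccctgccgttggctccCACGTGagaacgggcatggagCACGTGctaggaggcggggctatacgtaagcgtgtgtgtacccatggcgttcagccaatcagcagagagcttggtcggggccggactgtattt
Dmc1, chr15:79605060-79605359, minus strand: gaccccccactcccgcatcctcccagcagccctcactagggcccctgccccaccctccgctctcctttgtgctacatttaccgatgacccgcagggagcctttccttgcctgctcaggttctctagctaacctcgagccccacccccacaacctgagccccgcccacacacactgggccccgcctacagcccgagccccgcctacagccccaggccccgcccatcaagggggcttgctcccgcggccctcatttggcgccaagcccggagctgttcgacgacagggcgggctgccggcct
Usp17la, chr7:104856766-104857065, plus strand: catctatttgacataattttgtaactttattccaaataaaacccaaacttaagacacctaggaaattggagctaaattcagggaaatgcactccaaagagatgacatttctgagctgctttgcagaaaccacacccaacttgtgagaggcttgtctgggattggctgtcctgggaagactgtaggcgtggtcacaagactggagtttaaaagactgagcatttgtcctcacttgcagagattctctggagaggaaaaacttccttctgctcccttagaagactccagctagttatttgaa

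The E-box stood in 53.3% of the 30 germline genes with a promoter in the table, against 10.7% of the 13162 tested genes with one and 8.09% of all 27025 genes listed. Among germline genes that rose 8 of the 19 matched had it, and among those that fell 5 of 8. Fkbp6 rose and Sycp3 fell with 2 copies each, and neither Asz1, which rose, nor Dmc1, which fell, had one in this window. Germline promoters had a median of 19.5 CpG dinucleotides and two-cell promoters 1.5, against 18 over the tested genes. A match is a description of letters and not a bound site.

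Of 35 germline genes 23 rose and 8 fell (median 2.24), and 10 were above and 2 below all WT days. Of all genes tested 28.9% were higher and 26.3% lower, and 9.98% were above and 7.07% below all WT days. The share of germline genes that fell was thus not above the share over all genes. Asz1, a scaffold of the piRNA pathway (chromosome 6, 18050964 to 18109061), stood at 49.6 and 50.8 CPM in TKO day 7 libraries, against 0.0862 and 0.0627 CPM in WT day 4 libraries (log2 fold change 9.32 ± 0.27, adjusted p = 1.26e-10). WT day 0 averaged 2.99 CPM and WT day 7 had 0. Both TKO libraries were above every WT library of the series. Fkbp6, a cochaperone of the same pathway, was at 16.4 and 14.7 CPM in TKO day 7, against 1.52 and 1.59 CPM in WT day 4 (log2 fold change 3.32 ± 0.16, adjusted p = 2.35e-09), within a WT course that began at 82.6 CPM on day 0. Dazl, a translational regulator of germ cells, was at 26.4 and 21.2 CPM in TKO day 7, against 1.34 and 2.53 CPM in WT day 4 (log2 fold change 3.64 ± 0.20, adjusted p = 8.43e-09), and at 93.3 CPM in TKO day 0 and 195 CPM in WT day 0. Tex15 (3.53 ± 0.29), Mov10l1 (2.52 ± 0.19) and Slc25a31 (4.23 ± 0.27) were among those above the WT course.

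The 8 germline genes that fell were genes of meiotic chromosomes (Dmc1, Smc1b, Syce2 and Sycp3) and of the piRNA pathway (Mael, Pld6, Tdrd1 and Tdrd12), and genes of both kinds also rose, such as Sycp2 (2.26 ± 0.21), Hormad1 (2.46 ± 0.18) and Asz1. Sycp3, an axial protein of meiotic chromosomes, stood at 1.87 and 2.23 CPM in TKO day 7, against 43.4 and 51.97 CPM in WT day 4 (log2 fold change -4.54 ± 0.18, adjusted p = 5.27e-10), with 2.77 CPM in WT day 7. Dmc1, the meiotic recombinase, stood at 0.719 and 0.468 CPM in TKO day 7, against 11.98 and 11.9 CPM in WT day 4 (log2 fold change -4.33 ± 0.23, adjusted p = 5.35e-09), below each WT day. Smc1b fell (-2.18 ± 0.30), as did Tdrd1 (-2.92 ± 0.31) and Syce2 (-1.86 ± 0.14). In WT day 7 against WT day 4, 0 of 35 were higher and 30 lower (17.7% and 19.1% over all genes). The summed list was 559 and 562 CPM in TKO day 7, 295 and 373 CPM in WT day 4 and 93.3 and 97.4 CPM in WT day 7. TKO day 4 held 575 and 545 CPM.

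X-linked Rhox, Xlr and Mage genes, also expressed mainly in testis, had 26 higher and 2 lower of 30 tested. Over all genes 28.9% were higher and 26.3% lower. The median of the list was 4.45, or 3.65 with the 9 members at 0 counts in WT day 4 set to their bound. Of the 30, 9 were above and 1 below all WT days, and 14 were nearest WT day 0 and 10 nearest WT day 2. The list summed to 381 and 398 CPM in TKO day 7 and 201 and 254 CPM in WT day 4. WT day 0 held 739 and 631 CPM and WT day 2 held 498 and 563 CPM. Mageb4 had 1941 counts in TKO day 7 and 2 in WT day 4, a ratio of 1445 (95% exact binomial interval 399.5 to 11940, counting error only). Xlr4c was at 17.4 and 16.3 CPM in TKO day 7, against 1.55 and 2.03 CPM in WT day 4 (log2 fold change 3.24 ± 0.16, adjusted p = 2.91e-09). At WT day 0 it averaged 24.5 CPM. Xlr3a fell (-0.79 ± 0.10, adjusted p = 2.61e-05) and was below each WT day. The fall of Xlr5a (-0.35 ± 0.13, adjusted p = 0.0357) was not called in 5 alternatives, at 0.0565 to 0.181. Members of these families share reads, so the level of a single copy is uncertain. Of 10 primordial germ cell factors 5 rose and 1 fell (median 1.12), against 28.9% and 26.3% over all genes. Prdm1 (Blimp1) was at 14.9 and 12.8 CPM in TKO day 7, against 3.09 and 5.79 CPM in WT day 4 (1.65 ± 0.23, adjusted p = 3.85e-05), with 25.5 CPM in WT day 7. Prdm14 had 1 count in TKO day 7 and 29 in WT day 4, a ratio of 0.0513 (95% exact binomial interval 0.00126 to 0.310). Rhox6 rose (2.63 ± 0.46) at 0.546 and 0.551 CPM in TKO day 7, against 0.0345 and 0.146 CPM in WT day 4.

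Genes of the two-cell embryo were called higher in each of the 19 members tested (median 4.32), and each was above all 4 WT days. Among all genes tested 28.9% were higher and 9.98% above all WT days. Tmem92 stood at 131 and 213 CPM in TKO day 7, against 1.52 and 2.74 CPM in WT day 4 (log2 fold change 6.36 ± 0.33, adjusted p = 1.83e-08), and averaged 0.0362 CPM in WT day 7. Usp17la, a deubiquitinase of a multicopy family, was at 17.7 and 31.9 CPM in TKO day 7, against 0.914 and 1.59 CPM in WT day 4 (log2 fold change 4.32 ± 0.38, adjusted p = 6.46e-07). The 6 Zscan4 genes, which mark the two-cell state, lay between 27.3 and 179.8 CPM in the TKO day 7 libraries and between 0.655 and 9.07 CPM in the WT day 4 libraries. Duxf3, the factor that activates them, was at 4.71 and 7.77 CPM in TKO day 7, against 0.0345 and 0.125 CPM in WT day 4 (6.30 ± 0.53, adjusted p = 1.48e-06). Replicate 2 of TKO day 7 held more than replicate 1, with list sums of 543 and 955 CPM in TKO day 7, 21.0 and 39.4 CPM in WT day 4 and 0.845 and 0.723 CPM in WT day 7. TKO day 4 summed to 74.6 and 30.5 CPM and TKO day 2 to 3.03 and 3.99 CPM. Zscan4 and Usp17l copies share reads, so single members are uncertain.

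**Figure D5:**
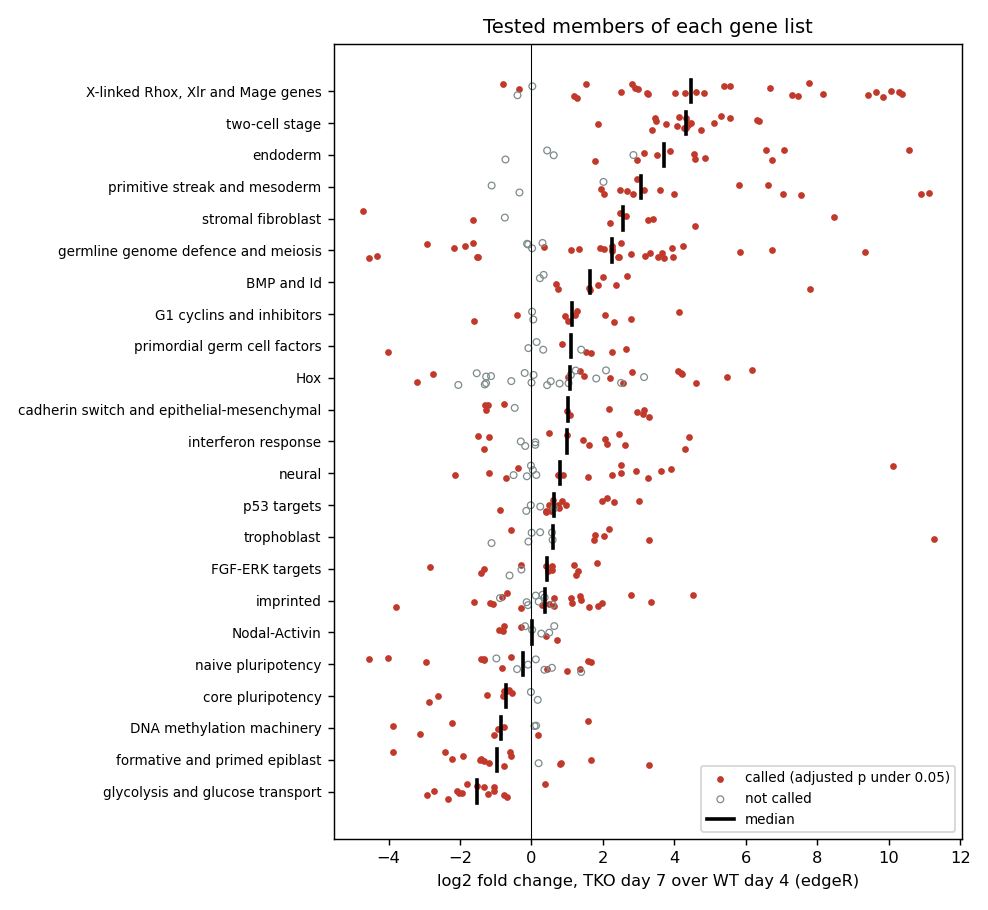
Log2 fold change of TKO day 7 over WT day 4 (x axis, edgeR) for each tested member of 23 gene lists (rows), red where called and open grey where not, with the median as a black bar. The X-linked, two-cell, endoderm, and streak and mesoderm lists stand at medians of 4.45, 4.32, 3.70 and 3.05, and the glycolysis list at -1.52.

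Glycolytic genes were lower in TKO day 7 nearly throughout. Of 15 genes 14 fell and 1 rose (median -1.52), and 5 were below all WT days. Among all genes tested 26.3% fell, 28.9% rose and 7.07% were below all WT days. Pdk1, the kinase that restrains pyruvate entry to mitochondria, stood at 34.01 and 34.00 CPM in TKO day 7, against 227 and 287 CPM in WT day 4 (log2 fold change -2.92 ± 0.11, adjusted p = 2.97e-10), with 126 CPM in WT day 7. Slc2a1, the main glucose transporter, stood at 144 and 137 CPM in TKO day 7, against 885 and 986 CPM in WT day 4 (log2 fold change -2.74 ± 0.12, adjusted p = 1.66e-09). Aldoa was at 380.3 and 379.5 CPM in TKO day 7, against 1330 and 1753 CPM in WT day 4 (-2.02 ± 0.12, adjusted p = 2.31e-08) and Ldha at 567 and 579.7 CPM in TKO day 7, against 1160 and 1697 CPM in WT day 4 (-1.32 ± 0.16, adjusted p = 1.73e-05). Hk2 was the 1 that rose (0.39 ± 0.11, adjusted p = 0.00912), a call lost without TKO day 7 replicate 1 (0.113) or WT day 4 replicate 2 (0.0891). The list summed to 4944 and 4857 CPM in TKO day 7, 11456 and 15340 CPM in WT day 4 and 11615 and 12145 CPM in WT day 7. Against WT day 7 the list had 0 higher and 14 lower (median -1.23).

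Targets of p53 had 13 higher and 1 lower of 18 (median 0.62), against 28.9% and 26.3% over all genes, and 8 were above all WT days. Cdkn1a (p21), the cell-cycle inhibitor, stood at 260.4 and 266 CPM in TKO day 7, against 56.6 and 50.7 CPM in WT day 4 (log2 fold change 2.29 ± 0.09, adjusted p = 7.92e-10), within a WT course with 331 CPM at day 0. Plk2 rose (1.97 ± 0.11) above each WT day, and Bbc3 (Puma), a killer protein of the Bcl-2 family, fell (-0.88 ± 0.12). Among 12 G1 cyclins and inhibitors 8 rose and 2 fell. Ccne2 rose (1.28 ± 0.09), while Cdkn1b (p27) was at 60.5 and 60.99 CPM in TKO day 7, against 194 and 179 CPM in WT day 4 (log2 fold change -1.62 ± 0.08, adjusted p = 2.47e-09).

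Interferon response genes had 10 higher and 3 lower of 17 (median 1.01), against 28.9% and 26.3% over all genes. Of the 17, 5 were above and 1 below all WT days. Mx1, an antiviral GTPase, stood at 24.5 and 27.6 CPM in TKO day 7, against 1.28 and 1.19 CPM in WT day 4 (log2 fold change 4.39 ± 0.15, adjusted p = 1.26e-10). Isg15, a ubiquitin-like modifier, was at 3.79 and 3.39 CPM in TKO day 7, against 0.155 and 0.209 CPM in WT day 4 (4.29 ± 0.50, adjusted p = 7.51e-06). The restriction factor Bst2 fell (-1.50 ± 0.14) and so did Stat2 (-1.34 ± 0.17), which carries interferon signals and was below each WT day. The summed list was lower, at 165 and 153 CPM in TKO day 7 and 264 and 245 CPM in WT day 4. Bst2 alone gave 70.1 and 60.2 CPM in TKO day 7, against 190.1 and 179 CPM in WT day 4.

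Imprinted genes had 14 higher and 7 lower of 29 (median 0.37, or 0.21 without WT day 4 replicate 2), against 28.9% higher and 26.3% lower over all genes, with 4 above and 4 below all WT days. Grb10, a growth inhibitor, stood at 7.73 and 7.22 CPM in TKO day 7, against 112 and 93.2 CPM in WT day 4 (log2 fold change -3.78 ± 0.17, adjusted p = 1.66e-09), with 205 CPM in WT day 7 and 116 CPM in TKO day 4. Peg10, a gene derived from a retrotransposon, was at 1760 and 1743 CPM in TKO day 7, against 93.97 and 57.5 CPM in WT day 4 (log2 fold change 4.53 ± 0.39, adjusted p = 2.69e-06), with 866 CPM in WT day 7. Ndn rose (1.96 ± 0.11) above each WT day and Snrpn, its neighbour in the Prader-Willi region, fell (-1.15 ± 0.10). Cdkn1c, a cell-cycle inhibitor, was at 10.4 and 15.9 CPM in TKO day 7, against 1.83 and 1.99 CPM in WT day 4 (2.79 ± 0.23, adjusted p = 3.66e-07), and at 0.326 CPM in WT day 7.

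Signalling lists differed in kind. Of 11 BMP ligands and targets 9 rose and 0 fell (median 1.63). Bmp2, a ligand, was at 22.7 and 20.6 CPM in TKO day 7, against 0.0862 and 0.104 CPM in WT day 4 (log2 fold change 7.79 ± 0.35, adjusted p = 1.66e-09), with 34.6 CPM in WT day 7, and the target Id4 rose (2.00 ± 0.24). FGF-ERK targets had 8 higher and 4 lower of 14 (median 0.44), against 28.9% and 26.3% over all genes. The phosphatases Dusp4 (1.26 ± 0.13) and Dusp5 (1.29 ± 0.17) rose, and the immediate-early gene Fos (-2.83 ± 0.20) and the Ets factor Etv5 (-1.32 ± 0.10) fell. Fos was at 9.63 and 11.6 CPM in TKO day 7, against 94.1 and 57.03 CPM in WT day 4, and its relative Fosb at 0.977 and 1.07 CPM in TKO day 7, against 79.8 and 30.2 CPM in WT day 4 (log2 fold change -5.74 ± 0.58, adjusted p = 8.58e-06). WT day 7 averaged 7.21 CPM for Fos, 2.30 CPM for Fosb and 171 CPM for Etv5. These genes were thus also lower in WT day 7 than in WT day 4 (log2 fold changes -3.39, -4.58 and -1.69). Nodal-Activin genes had 2 higher and 4 lower of 11, 5 higher without WT day 4 replicate 2 and 2 lower without TKO day 7 replicate 2. Their median was 0.02 and lay on either side of 0 without 1 library, between -0.19 and 0.02. The WT day 4 libraries differed in these genes, with Lefty1 at 632 and 672 CPM in TKO day 7, against 187 and 738 CPM in WT day 4. Smad7, an inhibitor of the pathway, fell (-0.78 ± 0.14) below each WT day, and Skil fell (-0.77 ± 0.13). Smad3, which carries the signal to the nucleus, rose (0.42 ± 0.09).

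Hox genes were low in both groups, with summed levels of 22.3 and 13.5 CPM in TKO day 7 and 8.15 and 23.3 CPM in WT day 4. Of 34 tested 12 rose and 2 fell, against 28.9% higher and 26.3% lower over all genes. The median was 1.07, or 0.48 without TKO day 7 replicate 1, and the counts rested on single libraries. Without TKO day 7 replicate 1 there were 5 higher, without WT day 4 replicate 1 or 2 there were 7 and 6, and 7 with a stricter filter or with only the 4 libraries compared. Hoxb9 rose (4.09 ± 0.50, adjusted p = 1.2e-05) at 2.21 and 1.13 CPM in TKO day 7, against 0.0517 and 0.146 CPM in WT day 4. Hoxa13 had 39 counts in TKO day 7 and 1 in WT day 4, a ratio of 58.1 (95% exact binomial interval 9.83 to 2352). The fall of Hoxa5 (-3.20 ± 0.88, adjusted p = 0.00805) was lost without TKO day 7 replicate 2 (0.0738) or WT day 4 replicate 2 (0.0802).

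The largest falls came from genes of several kinds. Rps12-ps3 had 0 counts in TKO day 7 and 3746 in WT day 4, at least 839-fold lower, but its symbol is that of a pseudogene of a ribosomal protein gene, and its call (adjusted p = 0.0406) was lost with no filter on low counts (0.0672) and without any 1 of the 4 libraries (0.0792 to 0.123). Next came Fosb, the histocompatibility gene H2-Q2 (-5.01 ± 0.41), Cdh9 (-4.77 ± 0.24), Dppa5a, Sycp3, Aldh1b1 (-4.39 ± 0.29) and Pla2g1b (-4.39 ± 0.62). Cdh9, a cadherin, was at 0.690 and 0.413 CPM in TKO day 7, against 15.4 and 14.7 CPM in WT day 4, with 1.42 CPM in WT day 7.

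The genes furthest outside the WT course gave 2 short lists. Furthest above it, by distance to the nearest WT day, were Noto, Msgn1, Tmem92, AC153137.1, Sprr2a2 and Sprr2a3. How far Sprr2a2 and Sprr2a3 share reads was not tested, so the level of each is uncertain. Sprr2a2, of a multicopy family of epithelial cornified envelope proteins, was at 171 and 118 CPM in TKO day 7, against 0.190 and 0.104 CPM in WT day 4 (log2 fold change 9.88 ± 0.39, adjusted p = 1.42e-09), and averaged 1.81 CPM in WT day 7 and 0.337 CPM in TKO day 4. Furthest below it were Dnmt1, Aldh1b1, Pla2g1b, Grb10, Phf19 and Smtnl2. Phf19, a subunit that brings Polycomb complex PRC2 to chromatin, was at 0.546 and 0.551 CPM in TKO day 7, against 9.81 and 11.2 CPM in WT day 4 (log2 fold change -4.25 ± 0.21, adjusted p = 2.62e-09), and averaged 6.25 CPM in WT day 7 and 5.80 CPM in TKO day 4. Aldh1b1 averaged 0.449 CPM in TKO day 7 and 9.37 CPM in TKO day 4, and both genes were among the 23.5% called lower in TKO day 7 than in TKO day 4 (log2 fold changes -3.40 for Phf19 and -4.37 for Aldh1b1).

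Very abundant transcripts with a large rise formed one more set, chosen after the values were seen. With at least 500 CPM in TKO day 7 and a log2 fold change of 2 or more there were 9 genes, which together took 3.53% and 3.86% of the counts in TKO day 7 and 0.102% and 0.100% in WT day 4. Noct took 1.40% and 1.55% in TKO day 7, against 0.0311% and 0.0287% in WT day 4, and Slc38a6 took 1.17% and 1.23%, against 0.0246% and 0.0222%. Of the distinct 31-base words of the leading Slc38a6 transcript 62.9% also occur in the leading Noct transcript, so reads could be divided between them and neither level is certain. The overlap was wider than this pair. Words found in any other gene made up 78.0% in Slc38a6, 42.7% in Noct (1159 other genes), 65.6% in Rab3gap1, 37.8% in Sirt5 and 31.7% in Tmem72. In pseudogenes of the set they made up 80.1% and 91.5%. The levels of all these genes, and their part of the summed share, are therefore uncertain. Peg10, at 0.185% and 0.186% in TKO day 7, and T shared none of their words with other genes.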

How the data were processed

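RNA of 16 libraries was measured, 2 per genotype and day. The authors deposited estimated counts per transcript from kallisto, per the file headers and the submitters' processing notes, which name GRCm38 and mm10. The TPM values deposited beside them were not used. The kallisto version is not given in the sources used here. Of the transcripts listed, 97.75% matched GENCODE vM21 (GRCm38) and were summed per gene and rounded; unmatched transcripts held 0.946% to 1.05% of the counts of a library and were left out.

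edgeR 4.0.16 (R 4.3.3) fitted 8 group means over all 16 libraries with TMM scaling, its expression filter and the robust quasi-likelihood test, leaving 18489 genes and 8 residual degrees of freedom. p-values were adjusted by Benjamini-Hochberg over all genes tested and read at 0.05. A gene was outside the WT course when called in the same direction against each of the 4 WT days. Every other gene was counted as within it, with no test that its level lay inside the WT range. Alternatives were DESeq2 1.42.0, RLE size factors, other filters, the 4 libraries alone, a replicate block and leaving out each library. Floors and intervals cover counting error only. An SE is the size of the log2 fold change divided by the square root of the F statistic of its test.

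The members and lists were chosen with earlier results of these data known. Genes named are the methyltransferases and Uhrf1, the 8 largest rises and 8 largest falls (protein-coding and called, groups not overlapping, 5 CPM or more in one group), for each of the 23 lists at most 2 called genes in either direction, fixed markers, and the 6 genes furthest above and 6 furthest below the WT course. Genes with Gm or Rik symbols were left out. Some genes the rule names are not reported here. Other list members named were chosen after their values were seen. Promoter sequences are from RefSeq (GRCm38.p6).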

Additional observations from a re-analysis of the deposited data

How the results depend on the processing

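Between TKO day 7 and WT day 4 the count of genes called was 10203, and ran from 8247 to 8966 with 1 library left out. It was 10063 with RLE size factors (5581 higher and 4482 lower), 9603 with DESeq2, 10240 with the 4 libraries alone and 9954 when low counts were not filtered. With a replicate block it was 9870. Deviations of same-numbered TKO day 7 and WT day 4 libraries correlated at -0.0396 over genes, and the number was not taken to pair them. Over all pairs of groups this correlation ran from -0.572 (WT days 0 and 2) to 0.0801, with -0.132 for TKO day 4 and WT day 4, and no crossed pairing was run. Genes outside the WT course ran from 2264 to 3670 with 1 library left out, and numbered 2967 with a replicate block. With 1 library left out, TKO day 7 against WT day 7 gave 6212 to 6744 genes and WT day 7 against WT day 4 gave 4651 to 5647, and with the replicate block 7880 and 6478. Over genes with at least 5 CPM in a group, the median distance of TKO day 7 was 0.6925 to WT day 0, 0.5832 to WT day 2, 0.4181 to WT day 4 and 0.3058 to WT day 7. As a mean over pairs of libraries it was 0.5364 to WT day 4 and 0.4225 to WT day 7. The position of TKO day 7 on the WT axis was 74.54% with the 500 most variable genes and 80.46% with 5000, against 78.28% with 2000. Of 1096 values of the 110 named genes under alternatives, 1060 kept direction and side of the threshold, 36 lost the call and 0 reversed. The causes were not tested. Depth was lowest in TKO day 7 replicate 1, which limits genes of few counts.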
